A study of Mus musculus with 39 samples.

Results

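The genes by which fat tissue and macrophages store triglyceride, break it down and take up fatty acids were followed over a diet time course in cells of mouse brown fat. The 10 genes were Dgat1, Dgat2, Cidec, Pnpla2, Lipe, Mgll, Lpl, Cd36, Fabp4 and Fabp5, of 29407 genes named on the array. They were chosen by name: a probe belonged to a gene when the submitters' annotation of the array gave it that gene symbol, and the probe of highest mean signal stood for the gene.

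RNA of brown fat stromal vascular cells, which the labels also call infiltrating macrophages, was hybridised to 39 Agilent arrays of 1 colour. All mice were C57BL/6J and entered the study after weaning at 3 to 4 weeks of age. The low fat diet (LFC, 10% of calories from fat) had 10 arrays, at Days 1, 6, 10 and 14, at Week 0 and Week 3, and then every 3 weeks from Week 9 to Week 18. The high fat diet with added sucrose (HFC, 60% of calories from fat) had 11 arrays, at the same time labels and at Week 6. The high fat diet with the plant formulation KAL-1 at 5 µg (HF5), 20 µg (HF20) or 75 µg (HF75) had 6 arrays each, every 3 weeks from Week 3 to Week 18. Each diet had 1 array per time label, so a diet was compared over time labels and there was no repeat within a diet and time. The labels do not say how many animals gave RNA to an array, nor whether arrays of a diet came from separate animals at each time, so the p-values measure only the spread between these arrays. The Week 12 array called HF20 in its title and source name carries a characteristic without the formulation, and it was used as HF20.

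Triglyceride is made from glycerol and fatty acids and kept in lipid droplets, which fill fat cells and also form in macrophages that take up much lipid. Dgat1 and Dgat2 add the last fatty acid. Cidec coats the droplet and helps droplets grow. Pnpla2 (adipose triglyceride lipase), Lipe (hormone-sensitive lipase) and Mgll (monoglyceride lipase) then remove the fatty acids in turn, and brown fat burns them to make heat. Lpl frees fatty acids from blood lipoproteins, Cd36 carries them across the cell membrane, and Fabp4 and Fabp5 bind them inside the cell. Fabp4 is the abundant binding protein of fat cells, although macrophages make it too. Fabp5 is known from skin and macrophages.

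The contrast of Fabp4 with Fabp5 rests on the probes below, printed because the Fabp4 probes did not give the same picture. Each line gives the first 30 of the 60 bases as the submitters' annotation writes them. Fabp4 had 3 probes and Fabp5 had 1.
Fabp4, brightest probe: aagaggcctggatggaaatttgcatcaaac
Fabp4, probe of nearly equal signal: agatggtgacaagctggtggtggaatgtgt
Fabp4, probe saturated on the fewest arrays: cctttgtgggaacctggaagcttgtctcca
Fabp5: gccccgtcatttaagcttgccttaaatcgt

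All 10 genes were well above background on all 39 arrays. A level here is log2 of the spot intensity minus log2 of the array's 75th percentile, so a level of 0 is the 75th percentile itself, and levels of different probes are not compared with each other. The arrays differed widely in brightness, with 75th percentiles from 18.1 to 3974.2 (median 129.9) and 31.2% to 98.0% of spots well above background. On 3 arrays over 10% of spots were flagged as outliers and left out. These were HFC at Week 12 (11.07%), HF5 at Week 12 (18.63%) and HF20 at Week 15 (71.4%). Lipe had no usable spot on HF5 at Week 12 and HF20 at Week 15, and Dgat1 had none on HF20 at Week 15, so their fits used 37 and 38 arrays.

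Before the values are read, the ceiling of the scanner has to be known. The brightest Fabp4 probe was saturated on 29 of 39 arrays. On these arrays its intensity before scaling lay between 15.46 and 16.12 on the log2 scale, and on the 10 other arrays between 14.98 and 15.84. Among the saturated arrays its level after scaling therefore ran with the brightness of the array, from 10.37 on the HFC Day 14 array (75th percentile 46.8) to 4.15 on the HF20 Week 15 array (75th percentile 3974.2). The third Fabp4 probe was saturated on 2 arrays. Its levels correlated with those of the brightest probe with r = 0.13 over all 39 arrays. Over the 29 arrays that had at most 100 saturated spots r was 0.65. Over the 27 of these that also had at most 10% of spots flagged r was 0.20, so the 2 probes did not agree there either. The Fabp5 probe was saturated on none.

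**Figure D1:**
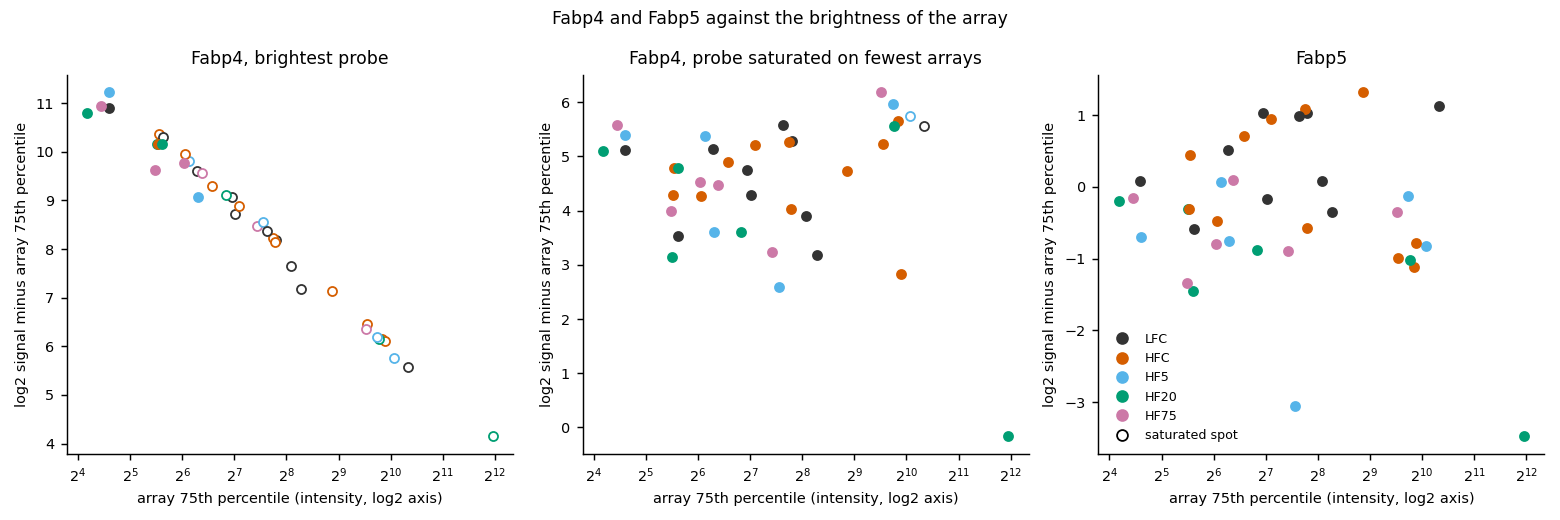
Level (log2 signal minus the array's 75th percentile) of Fabp4 from its brightest probe, of Fabp4 from the probe saturated on the fewest arrays, and of Fabp5, each against the array's 75th percentile (intensity, log2 axis), with 1 point per array coloured by diet and open points for saturated spots. The brightest Fabp4 probe falls along a line from 11.23 to 4.15 as arrays get brighter, which the other Fabp4 probe and Fabp5 do not follow.

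Saturation reached other genes on fewer arrays: Dgat2 and Cidec on 8, Pnpla2 and Lpl on 7, and Mgll on 4. Lipe, Fabp5, Cd36 and Dgat1 were never saturated. On 8 arrays 3 or more of the 10 genes were saturated at once, and 7 of these 8 carry BA or BAT in their title. They were LFC at Week 12 and Week 18, HFC at Week 6 and Week 9, HF5 at Week 9 and Week 15, HF20 at Week 12 and HF75 at Week 15. On the HFC Week 6 array the 5 saturated genes read between 6.42 and 6.46, and on the LFC Week 12 array 6 genes read between 5.55 and 5.60. On such arrays the levels of the saturated genes carry the ceiling and not an order. The LFC Week 18 array was less uniform. Its 3 saturated genes read between 6.69 and 7.19, and Lpl, not saturated there, read 7.11.

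The synthesis enzyme Dgat1 and the lipase Lipe, neither saturated, stood apart on the same 8 arrays. Dgat1 lay between 2.61 and 3.93 there, and between -1.22 and 1.58 on the 30 other arrays that measured it. Lipe lay between 2.95 and 4.26 there, and between -1.28 and 2.50 on the 29 other arrays that measured it. Neither gene overlapped between these arrays and the others. How many of all probes separate there in the same way was not counted, so this is not read as particular to these genes. Fabp5 did overlap, with -1.11 to 1.13 on the 8 arrays and -3.48 to 1.33 on the 31 others. The 8 arrays were picked out by saturation, so these ranges are given without a test.

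Among the genes that build and coat the droplet, Dgat2 had a lowest, median and highest level of 3.65, 4.58 and 6.69 on LFC and of 2.30, 3.86 and 6.46 on HFC. Under the formulation it had 2.88, 5.74 and 6.16 on HF5, 0.53, 5.08 and 6.18 on HF20, and 3.81, 5.29 and 6.34 on HF75. The ranges of all 5 diets overlapped, and the 3 lowest arrays of all were HF20 at Week 15, HFC at Day 6 and HFC at Week 12 (2.56). Cidec had 4.14, 5.05 and 7.08 on LFC and 3.33, 5.10 and 6.45 on HFC. On HF5 it had 4.12, 6.03 and 7.63, on HF20 1.11, 5.90 and 7.44, and on HF75 4.97, 6.02 and 6.88. The median of Cidec was thus higher in each of the 3 KAL-1 groups than in LFC and HFC, and the ranges overlapped. LFC and HFC include early time labels that the KAL-1 groups lack. Over the 5 labels that all diets share the order held, with medians of 5.56 on LFC, 5.26 on HFC, 6.20 on HF5, 6.13 on HF20 and 6.19 on HF75. The medians of LFC, HF5 and HF20 there were saturated spots. Dgat1 had medians of -0.01 on LFC, -0.31 on HFC, 1.07 on HF5, -0.15 on HF20 and -0.65 on HF75.

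Among the lipases, the median level of Pnpla2 lay between 4.58 (HFC) and 6.01 (HF5), with a range over all arrays from 0.76 to 6.57. That of Mgll lay between 5.38 (HF20) and 6.60 (LFC), with a range from 1.38 to 7.16. Lipe, which acts between these enzymes, had a lowest, median and highest level of 0.11, 1.78 and 3.44 on LFC, of -1.28, 1.04 and 4.26 on HFC and of -0.17, 0.37 and 2.95 on HF75. The 5 HF5 arrays that measured Lipe gave 1.24 (Week 3), 0.80 (Week 6), 4.00 (Week 9), 3.55 (Week 15) and 0.91 (Week 18). The 5 HF20 arrays gave 0.20 (Week 3), 0.64 (Week 6), 1.5 (Week 9), 4.23 (Week 12) and 0.80 (Week 18). The 3 values of 3.55 and above in HF5 and HF20 all came from the arrays with 3 or more saturated genes.

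Among the genes of uptake, Cd36 had a lowest, median and highest level of 3.23, 5.14 and 6.23 on LFC and of 3.56, 5.15 and 6.06 on HFC. It had 0.78, 4.74 and 5.46 on HF5, 0.83, 3.74 and 4.94 on HF20, and 3.43, 4.17 and 5.43 on HF75. Its 2 lowest values came from the HF5 Week 12 and HF20 Week 15 arrays, both among the 3 with over 10% of spots flagged. The median level of Lpl lay between 4.03 (HF75) and 5.71 (HF5), with a range over all arrays from 1.86 to 7.11. The array of HF20 at Week 15 gave the lowest value of 7 of the 10 genes, namely Pnpla2, Mgll, Lpl, Fabp4, Fabp5, Cidec and Dgat2. Lipe and Dgat1 had no usable spot on it. It was the brightest array (75th percentile 3974.2) and had 71.4% of spots flagged. How many of all probes were lowest on it was not counted.

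Of the binding proteins, Fabp5 had a lowest, median and highest level of -0.59, 0.30 and 1.13 on LFC and of -1.11, -0.30 and 1.33 on HFC. It had -3.05, -0.73 and 0.07 on HF5, -3.48, -0.94 and -0.20 on HF20, and -1.34, -0.57 and 0.10 on HF75. The KAL-1 groups lack the early labels, and over the 5 labels that all diets share the medians were 0.08 on LFC, -0.58 on HFC, -0.70 on HF5, -1.01 on HF20 and -0.35 on HF75. HF75 was thus above HFC there, and the ranges overlapped. The brightest Fabp4 probe had 5.57, 8.55 and 10.90 on LFC and 6.11, 8.23 and 10.37 on HFC, where it was saturated on 9 of 10 and 10 of 11 arrays. It had 5.77, 8.81 and 11.23 on HF5, 4.15, 9.63 and 10.80 on HF20, and 6.36, 9.59 and 10.95 on HF75.

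**Figure D2:**
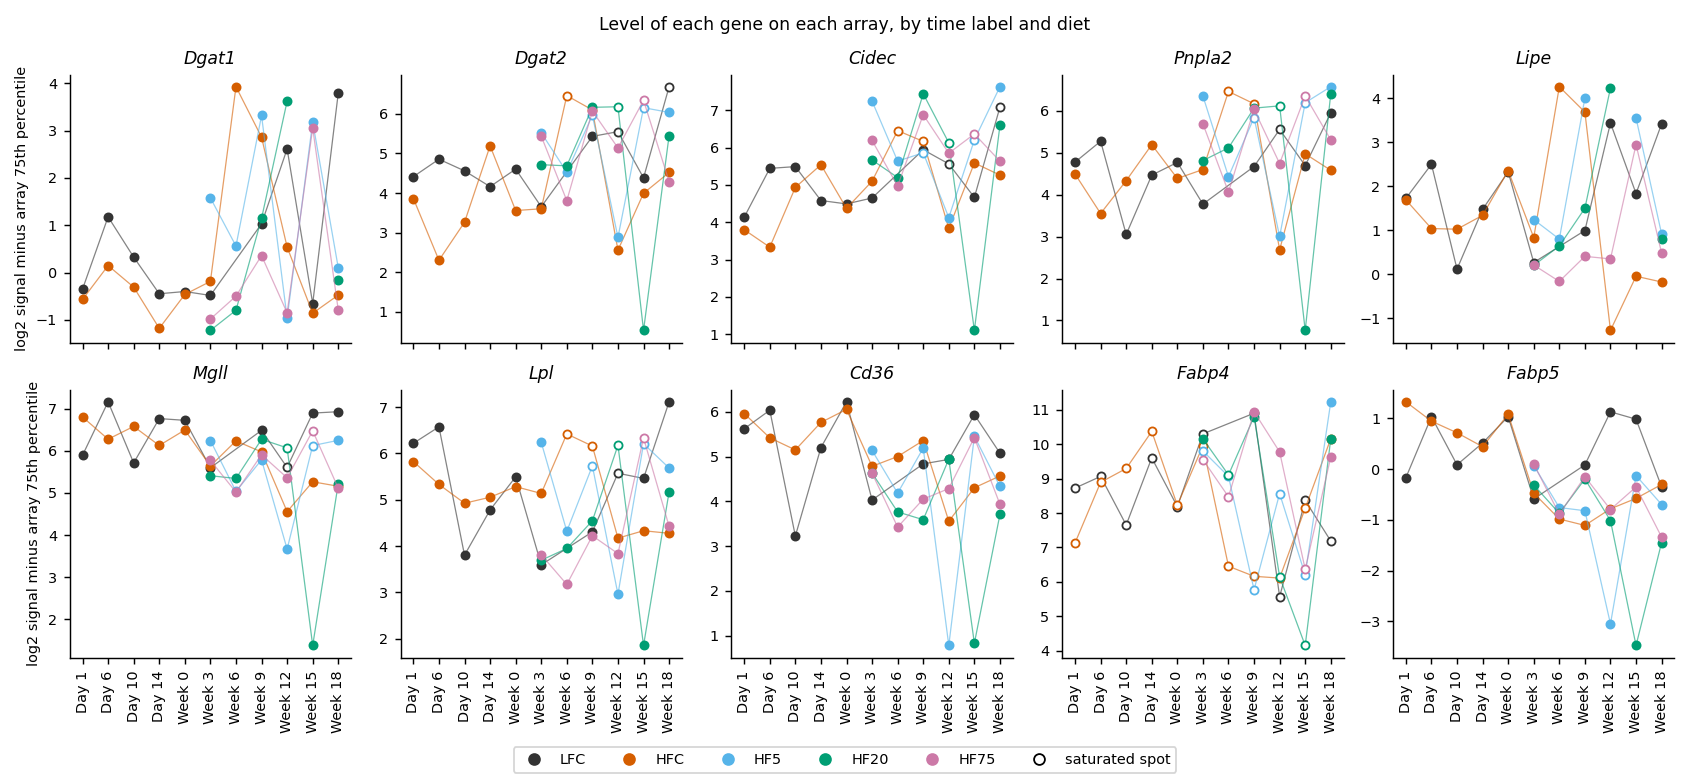
Level (log2 signal minus the array's 75th percentile) of the 10 genes on each array by time label, with 1 panel per gene, lines joining the arrays of a diet and open circles for saturated spots. Dgat1 and Lipe swing between arrays from Week 6 on, Fabp5 lies between -0.17 and 1.33 up to Week 0, and the HF20 Week 15 array drops to the bottom of most panels.

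The methods count weeks from Day 14, so Day 14 and Week 0 name the same day, and the 2 arrays of a diet at these labels are the nearest thing to a repeat. Over pairs in which neither spot was saturated, they differed by 0.04 (Mgll on LFC) to 1.64 (Dgat2 on HFC). Cidec differed by 1.17 on HFC and 0.09 on LFC, and Cd36 by 0.29 and 1.02. Fabp4 had a saturated spot in both pairs and gives no repeat.

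The question of the diet comparison was whether the high fat diet changed these genes. None of the 10 passed the threshold of limma (Benjamini-Hochberg adjusted p of 0.05 over 34043 probes, in 1 fit of diet and time label), where 0% of all probes were called. None of the 10 had an unadjusted p under 0.05 either, against 970 of all probes (2.85%). HFC minus LFC was below 0 for 9 of 10 genes (8 of 9 without Fabp4), with a median of -0.29 beside 0.05 over all probes. For Dgat2 it was -0.74 ± 0.58 (SE; 95% interval -1.93 to 0.45; p = 0.214), a level 1.67-fold lower on the high fat diet. At the 7 time labels where neither array was saturated for it, Dgat2 was lower at 6, from -2.55 at Day 6 to 1.03 at Day 14. Dgat1 was also lower at 8 of 10 labels, with a fitted difference of -0.42 ± 0.70. Its second probe gave -0.45 ± 0.80 and was lower at 5 of 10 labels. Lipe was -0.47 ± 0.64 by its brightest probe and 0.30 ± 0.68 by its second, which was higher at 6 of 9 labels. The second probes of Pnpla2, Mgll and Lpl and the other Dgat2 probes were below 0. Cd36 differed by 0.01 ± 0.49 and Pnpla2 by -0.03 ± 0.56.

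Some of these directions rested on a few arrays. With the 9 arrays titled BA or BAT left out, Dgat1 was 0.22 ± 0.55, Lipe 0.06 ± 0.58 and Cidec 0.38 ± 0.61. Dgat2 kept its sign there but shrank to -0.16 ± 0.64. Fabp4 was 0.09 ± 0.55 by the probe saturated on the fewest arrays, and -0.24 ± 0.70 by the brightest probe, whose levels on most arrays are the ceiling. Dgat2 (-0.94 to -0.16 over the settings), Mgll (-0.43 ± 0.45) and Fabp5 (-0.30 ± 0.40) stayed at or below 0 in all 27 other settings.

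The question of the dose comparisons was whether KAL-1, given with the high fat diet, changed the genes relative to that diet alone. No gene passed the threshold at any of the 3 doses, or an unadjusted p of 0.05 in the fit of all arrays, and 0% of all probes were called at each dose (unadjusted p under 0.05 for 1.5%, 2.95% and 3.56% of probes at HF5, HF20 and HF75). With array weights 5, 3 and 3 of the 10 genes had an unadjusted p under 0.05 at HF5, HF20 and HF75. In the 27 arrays with few saturated and few flagged spots 5, 3 and 1 of the 10 genes had. None passed the adjusted threshold. The share of all probes at that unadjusted p was not counted in these 2 settings. The counts there are therefore not read as a result about the 10 genes. The gene nearest to a difference in the fit of all arrays was Cd36 under HF20, the fatty acid carrier, at -1.18 ± 0.61 (95% interval -2.44 to 0.07; p = 0.0631), lower at 5 of 6 time labels. With the 3 arrays of over 10% flagged spots left out, the Cd36 difference was -0.73 ± 0.37. With those and the arrays of over 100 saturated spots left out, which kept 27 arrays, it was -0.49 ± 0.49. Fabp5 under HF20 was -0.81 ± 0.50, lower at 3 of 6 labels. Without Week 15 it was -0.31 ± 0.46, without the flagged arrays -0.36 ± 0.38 and in the 27 arrays -0.21 ± 0.38. Lpl under HF20 was -0.85 ± 0.65 and turned to 0.22 ± 0.49 in the 27 arrays.

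The droplet genes were on the other side at the lowest dose. Under HF5, Cidec was 0.78 ± 0.63 and Dgat2 0.70 ± 0.72. Each was higher at all 3 labels where neither array was saturated for it, by 0.29 to 2.37 and by 0.32 to 1.92, while the 3 other labels carry the ceiling. Lipe was 0.82 ± 0.82, higher at 4 of 5. In the 27 arrays, which hold 3 of HF5 and 7 of HFC, Cidec was 2.24 ± 0.51 and Dgat2 1.89 ± 0.56, still not past the threshold. Under HF75, Cidec was 0.64 ± 0.63, also higher at all 3 labels without a saturated spot. Fabp4 by the probe saturated on the fewest arrays was 0.30 ± 0.69 under HF5, -0.80 ± 0.69 under HF20 and 0.20 ± 0.69 under HF75. The brightest probe gave 1.14 ± 0.86 under HF75, which turned to -0.54 ± 0.39 in the 27 arrays, and that value is not read as a change of Fabp4. Over the 10 genes the median difference was 0.41 at HF5, -0.18 at HF20 and -0.10 at HF75, beside -0.03, -0.02 and 0.05 over all probes. The 3 doses share the HFC arrays as control, so their differences are not independent of each other. A trend over dose rank (HFC, HF5, HF20, HF75, 24 arrays) had no gene past the threshold, where 0% of all probes were called, and none at an unadjusted p under 0.05 (7.04% of all probes). Dgat1 had a slope per rank of -0.34 ± 0.29 and Lpl of -0.33 ± 0.23. Fabp4 had -0.02 ± 0.26 by the probe saturated on the fewest arrays, and 0.39 ± 0.27 by the brightest probe, which was -0.31 without the arrays of over 100 saturated spots.

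**Figure D3:**
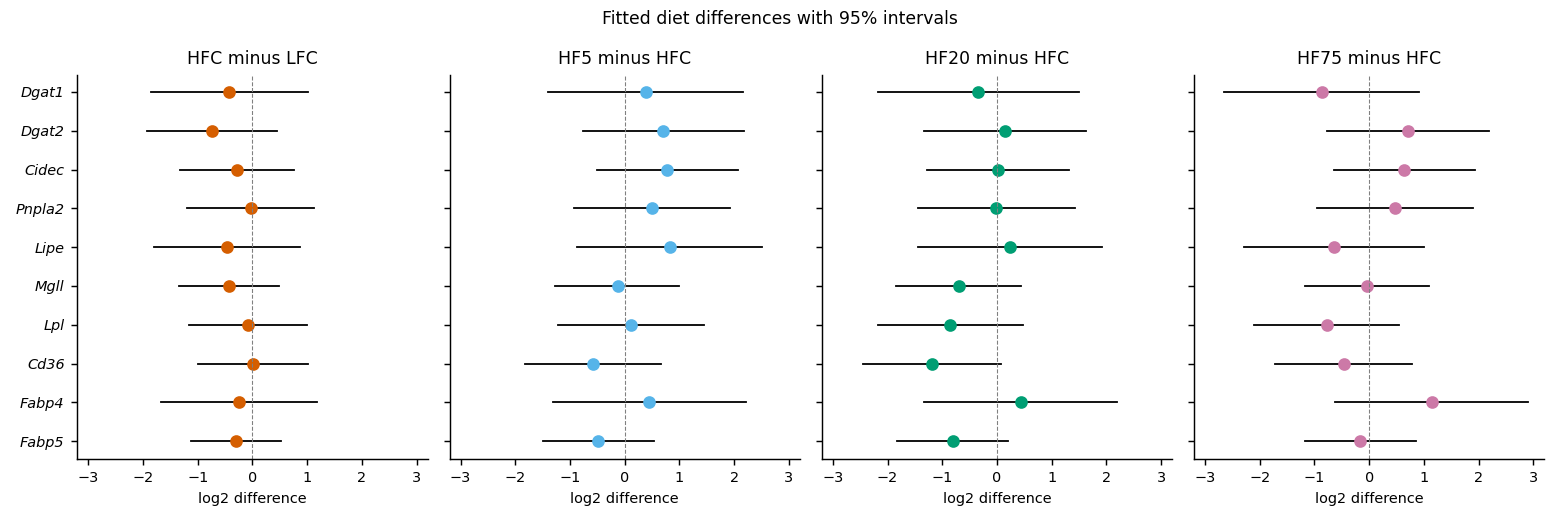
Fitted log2 differences of the 10 genes with 95% intervals (limma, 39 arrays), for HFC minus LFC and for HF5, HF20 and HF75 minus HFC, with Fabp4 from its brightest probe. All 40 intervals span 0, and the one nearest to leaving it is Cd36 under HF20, from -2.44 to 0.07.

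Fabp4 and Fabp5 were set against each other within each array. Levels of different probes cannot be compared, so only the change of Fabp4 minus Fabp5 between arrays was read. From the Fabp4 probe saturated on the fewest arrays its lowest, median and highest value was 3.53, 4.34 and 5.04 on LFC and 3.40, 4.35 and 6.77 on HFC. It was 4.36, 5.86 and 6.57 on HF5, 3.31, 4.89 and 6.57 on HF20, and 4.13, 5.33 and 6.54 on HF75. All ranges overlapped.

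Between HFC and LFC at the same label the mean difference of Fabp4 minus Fabp5 by this probe was 0.21 ± 0.27 (SE, n = 10 pairs), higher at 6 of 10 labels (exact two-sided permutation test exchanging the diets within labels, p = 0.439). Against HFC at 6 shared labels it was 0.59 ± 0.58 under HF5 (higher at 4 of 6, exact permutation p = 0.344). Under HF20 it was -0.20 ± 0.81 (higher at 2 of 6, exact permutation p = 0.875) and under HF75 0.15 ± 0.65 (higher at 3 of 6, exact permutation p = 0.812). None of the 4 comparisons passed 0.05 before any adjustment, and the smallest p that 6 pairs allow is 0.0312 (0.00195 with 10 pairs).

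The brightest Fabp4 probe, the one chosen by signal, gave mean changes of 0.14 ± 0.67, 0.80 ± 1.05, 1.11 ± 0.72 and 1.16 ± 0.98 in the same order (exact permutation p = 0.824, 0.5, 0.156 and 0.312). On a saturated spot Fabp4 is a ceiling, so this difference is that ceiling minus the unscaled Fabp5 intensity and still follows the brightness of the array. It was 4.44 on the LFC Week 12 array (75th percentile 1289.3) and 10.89 on the LFC Week 3 array (75th percentile 49.4). Of the 6 HFC arrays set against the doses 5 were saturated, so neither the sizes nor the signs from this probe are read as a change of Fabp4 against Fabp5.

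The time comparison asked which genes moved over 18 weeks on the LFC and HFC diets (21 arrays, slope per doubling of days, with diet in the fit). No gene passed the threshold and 0% of all probes were called, while 11.9% of all probes and 2 of the 10 genes, Cidec and Fabp5, had an unadjusted p under 0.05. Cidec had a slope of 0.24 ± 0.08 per doubling (95% interval 0.07 to 0.41; p = 0.0093, adjusted p = 0.281). Its median level was 4.54 on the 10 arrays up to Week 0 and 5.56 on the 11 from Week 3 on, with a range of 3.33 to 5.54 before and 3.84 to 7.08 after. The late spots of HFC at Week 6 and Week 9 and of LFC at Week 12 and Week 18 were saturated. In the 27 arrays with few saturated and few flagged spots the Cidec medians were 4.58 (n = 9) and 5.18 (n = 6). Fabp5 had a slope of -0.17 ± 0.08 (95% interval -0.33 to -0.01; p = 0.0359, adjusted p = 0.387), with a median of 0.83 up to Week 0 and -0.47 after. Fabp5 lay between -0.17 and 1.33 on the early arrays and between -1.11 and 1.13 on the late ones, so the groups overlapped. Cidec and Fabp5 kept their sign in all 20 other settings, at 0.17 to 0.28 and at -0.25 to -0.10. Without the arrays titled BA or BAT none of the 10 genes had an unadjusted p under 0.05 (limma). The share of all probes was not counted there.

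The slope of Dgat1 was 0.27 ± 0.14 (p = 0.0754). It was -0.04 ± 0.09 without the arrays of over 100 saturated spots, which include the 8 on which Dgat1 was 2.61 or higher. Cd36 had a slope of -0.15 ± 0.08 (p = 0.0817), Mgll of -0.11 ± 0.07 and Lipe of 0.00 ± 0.14. Dgat1, Dgat2, Cidec and Pnpla2 thus had slopes above 0 and the 6 other genes slopes at or below 0.

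Of 39 other genes of triglyceride and fatty acid handling, listed beside the 10, none passed the threshold in any comparison. For HFC against LFC, 17 of 18 storage genes were lower (median -0.38), as were 5 of 8 lipolysis genes and 5 of 13 uptake genes, none with an unadjusted p under 0.05. The smallest p belonged to Agpat2, an enzyme of the route to triglyceride (-1.51 ± 0.84, p = 0.0824), and Plin1, the coat protein of fat cell droplets (-1.37 ± 0.91, p = 0.145). Neither passed. Of the fat cell markers 8 of 9 and of the brown fat cell markers 7 of 8 were also lower in HFC, and 9 of 12 macrophage markers were higher, none past the threshold. The 39 genes and the markers were not fitted with arrays left out. Among the 10 genes, leaving out the arrays titled BA or BAT turned Lipe, Pnpla2, Lpl, Cidec and Dgat1 positive. Whether the lower storage genes rest on the same arrays was not tested. The part of cell composition in the lower storage genes was not tested, and in bulk RNA fewer cells of a type and less RNA per cell cannot be told apart.

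At the doses the smallest p among the 39 belonged each time to Scarb1, a receptor that takes up lipid from lipoproteins. Scarb1 was -0.79 ± 0.46 under HF5 (lower at 6 of 6 labels), -1.12 ± 0.46 under HF20 (lower at 6 of 6, p = 0.0218, adjusted p = 0.986) and -0.78 ± 0.46 under HF75 (lower at 5 of 6), with a slope over dose rank of -0.34 ± 0.16. It did not pass, and the comparisons share the HFC arrays. Second came Apoc2, the cofactor of Lpl, under HF5 (1.03 ± 0.69), Cav1, the protein of caveolae, under HF20 (-0.84 ± 0.48), Npr1, a natriuretic peptide receptor, under HF75 (-0.65 ± 0.39) and Slc27a1, a fatty acid transport protein, over dose rank (0.25 ± 0.13). The storage genes were higher for 16 of 18 under HF5, 9 of 18 under HF20 and 8 of 18 under HF75. Over dose rank, 4 of 18 storage genes, 1 of 8 lipolysis genes and 7 of 13 uptake genes had slopes above 0. The lipolysis genes were higher for 5, 3 and 1 of 8 under HF5, HF20 and HF75, and the uptake genes for 6, 3 and 6 of 13. All 7 endothelial markers were lower at each dose, and all 8 neutrophil markers were higher, none past the threshold. Their part in the Scarb1 and Cav1 values was not tested.

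Over time, 15 of the 39 had an unadjusted p under 0.05, with 11 slopes above 0 and 4 below, beside 11.9% of all probes. The storage genes had 17 of 18 slopes above 0 (median 0.23, beside -0.05 over all probes), 8 of them with an unadjusted p under 0.05, with the smallest p for Agpat9, an acyltransferase (0.37 ± 0.12, p = 0.00656). The 4 below 0 were Gpihbp1, which holds Lpl on the capillary wall (-0.34 ± 0.11, p = 0.00602), Npr1 (-0.22 ± 0.07), Scarb1 (-0.24 ± 0.10) and Cav1 (-0.16 ± 0.07). None passed the adjusted threshold (smallest adjusted p = 0.258). Of the fat cell markers 8 of 9 had slopes above 0 (4 with an unadjusted p under 0.05), and all 7 endothelial markers had slopes below 0 with an unadjusted p under 0.05. The fat cell list shares Plin1, Acsl1 and Adrb3, and the brown fat cell list Cidea, with the 39 genes. Of the rest, 8 of 8 brown fat cell, 8 of 8 skeletal muscle, 6 of 12 macrophage and 4 of 6 fibroblast markers had slopes above 0, and all neutrophil (8), erythroid (5), T cell (6) and B cell (5) markers slopes below 0. The part of these cell types in the slopes was not tested.

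The label of the samples was checked by the same markers. The macrophage genes Emr1, Csf1r, Cd14, Lyz1 and Mpeg1 were well above background on all 39 arrays. So were the fat cell genes Adipoq, Plin1, Cfd and Adrb3 and the brown fat genes Ucp1, Cidea, Cox7a1, Cox8b and Ppargc1a. In all, 9 of 12 macrophage, 8 of 9 fat cell and 5 of 8 brown fat cell markers were. The dimmest of each list was so on 28, 18 and 30 arrays. Of other lists, 6 of 7 endothelial, 4 of 6 fibroblast, 5 of 8 skeletal muscle and 4 of 5 erythroid markers were. Of neutrophil markers 3 of 8 were, and of T cell and B cell markers none. Fat cell transcripts were thus present in all libraries of a fraction from which fat cells are usually removed. The mean of the 9 fat cell markers ranged from -0.11 to 5.35 over arrays, with a median of 4.65 on the 9 arrays titled BA or BAT and 2.23 on the 30 others. The mean of the 12 macrophage markers ranged from -0.78 to 2.94, with medians of -0.31 and 1.20.

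Each gene was then set against these means over the arrays, as 20 relations adjusted together (two-sided permutation tests with 100000 resamples). Dgat2 went with the fat cell mean at r = 0.89 (rho 0.93, both p = 1e-05, the smallest the resamples can give, adjusted p = 3.33e-05 and 6.67e-05), r = 0.89 without the 2 arrays farthest from the median of the mean, and r = 0.87 to 0.96 within each diet. Pnpla2 (r = 0.78, rho 0.81) and Cidec (r = 0.74, rho 0.81) had the same p-values, and r = 0.78 and 0.73 without the 2 farthest arrays. Lpl was at r = 0.67 (rho 0.55, adjusted p = 0.000114 and 0.00106), Mgll at r = 0.45 (rho 0.31, adjusted p = 0.00698 and 0.123) and Cd36 at r = 0.37 (rho 0.21, adjusted p = 0.0352 and 0.346). For Mgll and Cd36 the rank correlation was therefore not past the threshold. Without the 2 farthest arrays Lpl, Mgll and Cd36 had r = 0.61, 0.43 and 0.38.

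With the macrophage mean Dgat2, Cidec, Pnpla2, Mgll, Lpl and Cd36 had r between -0.20 and 0.12 over the 39 arrays, none past the threshold. Within the diets their r differed in sign, for Pnpla2 from -0.85 (HFC) to 0.59 (HF5). Over the 29 arrays with at most 100 saturated spots Pnpla2 (r = 0.58), Cidec (0.57) and Dgat2 (0.51) passed. In the 27 arrays these were 0.32, 0.37 and 0.24 and did not pass. Without the arrays of over 10% flagged spots Lpl passed at r = -0.44. These genes are therefore not read as unrelated to macrophage markers. Fabp5 went with neither mean over the 39 arrays (r = 0.08 with fat cell markers, adjusted p = 0.72, and r = 0.16 with macrophage markers, adjusted p = 0.48). Within the diets its r with the macrophage mean ran from -0.44 (LFC, n = 10) to 0.76 (HF5, n = 6). Fabp4 by the probe saturated on the fewest arrays had r = 0.58 with the fat cell mean (adjusted p = 0.00025) and r = 0.00 with the macrophage mean. This probe was chosen after seeing the data. Its relations, like those with arrays left out, were tested with 20000 resamples. The brightest probe had r = -0.25 (adjusted p = 0.208) and r = 0.54 (rho 0.56, adjusted p = 0.00132), but its level on the 29 saturated arrays is the ceiling less the brightness of the array, so the latter is no relation of Fabp4 to macrophage markers.

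For Lipe and Dgat1 no r over all arrays is given, since the 8 arrays with 3 or more saturated genes form a cluster of their own. Within the 29 or 30 other arrays, Lipe had r = 0.11 with the fat cell mean (rho 0.03) and r = -0.41 with the macrophage mean (rho -0.19, adjusted p over 8 relations = 0.108), which was -0.05 without the 2 farthest arrays. Dgat1 had r = 0.35 with the fat cell mean (rho 0.25, adjusted p = 0.152) and r = 0.43 with the macrophage mean (rho 0.46, adjusted p = 0.108). In the 27 arrays with at most 100 saturated spots and at most 10% flagged spots, 4 of the 20 relations passed, namely Dgat2 (r = 0.86), Cidec (0.79), Pnpla2 (0.63) and the brightest Fabp4 probe (0.50) with the fat cell mean. That probe was saturated on 17 of the 27 arrays, and the third Fabp4 probe had r = 0.32 there. Mgll, Lpl and Cd36 had r = 0.11, 0.15 and -0.17 with the fat cell mean there and did not pass.

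**Figure D4:**
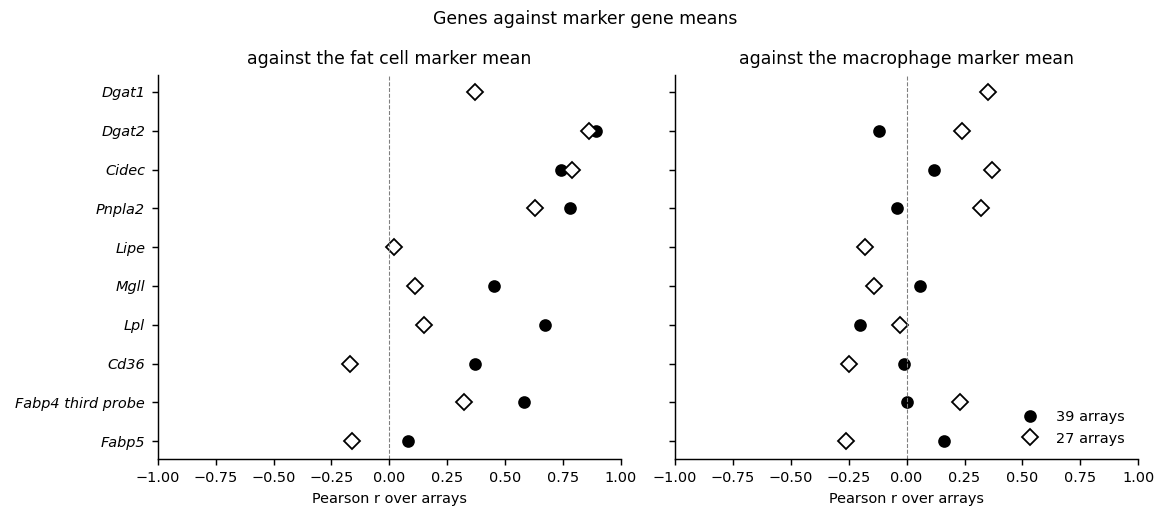
Pearson r of each gene's level with the mean level of 9 fat cell markers and of 12 macrophage markers, over 39 arrays (filled circles, not drawn for Lipe and Dgat1) and over the 27 arrays with few saturated and few flagged spots (open diamonds), with Fabp4 read from the probe saturated on the fewest arrays. Dgat2, Cidec and Pnpla2 stay at 0.63 or above with the fat cell mean in both sets, and Lipe lies at 0.02 in the 27 arrays.

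The genes fell into sets that moved together over those 27 arrays. The sets were drawn after the correlations were seen and are given as a description. Lipe, Mgll, Lpl, Fabp5 and Cd36 correlated with each other at r = 0.47 to 0.85 (median 0.75), the closest pair being Mgll and Fabp5. Pnpla2, Cidec and Dgat2 correlated with each other at r = 0.77 to 0.86 (median 0.79), the closest pair being Cidec and Dgat2. Between the sets r ran from -0.46 (Cidec with Cd36) to 0.33 (median -0.06), and Dgat1 stayed at 0.40 or below with all other genes. The third Fabp4 probe, saturated on none of the 27 arrays, correlated with the former set at r = 0.52 to 0.75, highest with Mgll, and with the latter at 0.18 to 0.39. It correlated with Fabp5 at r = 0.56. With the mean of each time label removed, r was 0.33 to 0.82 (median 0.65) within the former set, 0.74 to 0.86 (median 0.85) within the latter and -0.01 to 0.66 (median 0.37) between them, so the values of the former set overlapped those between the sets.

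**Figure D5:**
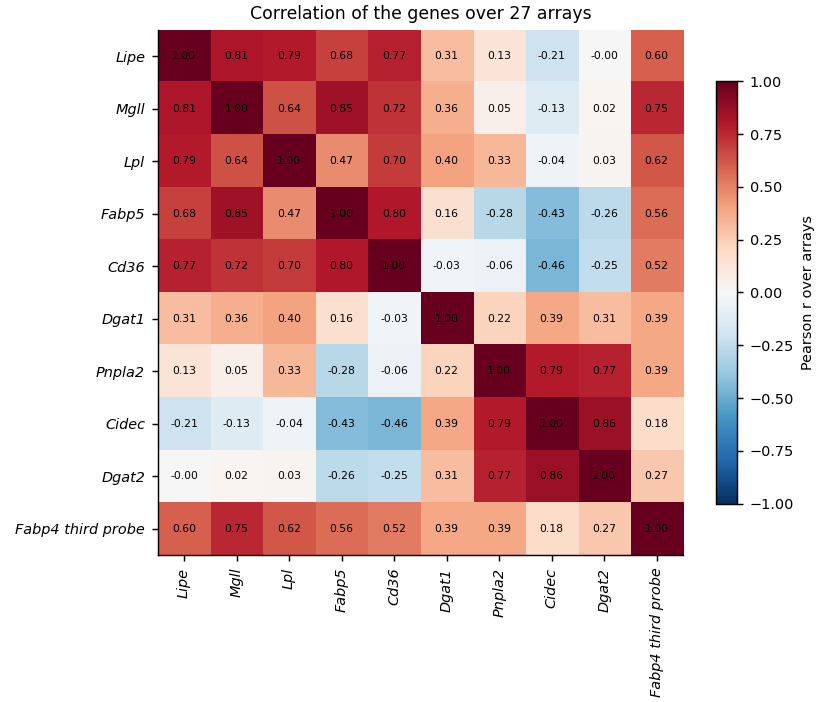
Pearson r between the levels of the 10 genes over the 27 arrays with few saturated and few flagged spots, with Fabp4 read from the third probe and colour from -1 to 1. Lipe, Mgll, Lpl, Fabp5 and Cd36 form a block of 0.47 to 0.85, Pnpla2, Cidec and Dgat2 a block of 0.77 to 0.86, and the Fabp4 row is higher with the former (0.52 to 0.75) than with the latter (0.18 to 0.39).

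Promoters of these genes are shown for both sets, as 250 bases before to 50 after the start of transcription in RefSeq (GRCm38.p6). Of the 10 genes 5 had entries (8 in all, as Lipe, Mgll and Cidec have 2 starts each, of which the first entry is used), namely Lipe, Mgll and Cd36 of the former set and Pnpla2 and Cidec of the latter. Capitals mark matches on either strand to AGGTCA, the core site of nuclear receptors such as PPAR gamma, to GGGCGG (GC box), to CCAAT and to TATAAA. Neighbouring GC boxes may overlap.
Cd36 (chr5:17835847-17836146, minus strand): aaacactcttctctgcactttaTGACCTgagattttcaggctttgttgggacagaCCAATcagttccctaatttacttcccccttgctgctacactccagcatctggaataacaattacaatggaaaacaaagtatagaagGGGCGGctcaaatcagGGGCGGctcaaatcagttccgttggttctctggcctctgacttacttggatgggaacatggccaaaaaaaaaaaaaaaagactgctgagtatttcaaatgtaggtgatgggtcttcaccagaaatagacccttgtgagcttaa
Lipe (chr7:25395938-25396237, minus strand): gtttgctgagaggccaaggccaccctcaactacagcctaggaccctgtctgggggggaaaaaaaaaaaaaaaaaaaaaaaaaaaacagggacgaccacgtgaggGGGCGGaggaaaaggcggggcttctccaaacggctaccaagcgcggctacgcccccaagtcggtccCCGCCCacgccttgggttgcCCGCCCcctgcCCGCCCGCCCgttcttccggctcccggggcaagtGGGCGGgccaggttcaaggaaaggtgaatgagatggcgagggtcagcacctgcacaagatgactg
Pnpla2 (chr7:141454938-141455237, plus strand): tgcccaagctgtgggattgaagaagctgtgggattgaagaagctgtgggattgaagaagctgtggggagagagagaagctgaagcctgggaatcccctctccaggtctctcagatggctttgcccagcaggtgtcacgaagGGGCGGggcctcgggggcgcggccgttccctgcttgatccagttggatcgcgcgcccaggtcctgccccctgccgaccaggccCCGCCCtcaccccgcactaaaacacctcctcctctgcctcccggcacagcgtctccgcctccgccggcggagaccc
Cidec (chr6:113435711-113436010, minus strand): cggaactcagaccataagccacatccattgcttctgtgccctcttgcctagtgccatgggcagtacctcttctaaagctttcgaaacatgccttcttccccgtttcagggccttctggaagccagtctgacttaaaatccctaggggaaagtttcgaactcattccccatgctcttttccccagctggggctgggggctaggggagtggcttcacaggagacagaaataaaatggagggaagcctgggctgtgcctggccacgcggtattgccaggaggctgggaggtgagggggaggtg

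The Cd36 window held AGGTCA 1 time, GGGCGG 2 times and CCAAT 1 time. The Lipe window held 6 matches to GGGCGG, some overlapping, and that of Pnpla2 held 2. The second Lipe entry held none of the 4 motifs, so the count for Lipe depends on the start chosen. The Mgll window, not printed, held GGGCGG 1 time. The Cidec window held none of the 4 motifs. Of 32851 mouse promoters of this length 16.3% held AGGTCA, 35.7% GGGCGG, 37.4% CCAAT and 13.6% TATAAA. The direct repeat of AGGTCA with 1 base between its copies, a PPAR site written strictly, was in 0.0396% and in none of the 8 entries of these genes. These letters did not sort the sets, since GC boxes were found in Lipe (first entry), Mgll and Cd36 of the one and in Pnpla2 of the other.

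The genes most like Fabp5 over the 39 arrays, among 5072 genes read well above background with a value on all 39, were Gm6166 (r = 0.97), Gm6100 (0.95), Fabp5l2 (0.94), Wars (0.87) and Tpst2 (0.87). The array annotates Gm6166 and Gm6100 as similar to fatty acid binding protein 5. Their probes shared runs of at most 8 bases with the Fabp5 probe, and whether the Fabp5 probe also binds their transcripts was not tested, so the Fabp5 level may include that of close copies. The genes most like the brightest Fabp4 probe were Gm10222 (r = 0.98), Gm12164 (0.97), Gm6790 (0.97), Gm10073 (0.97) and LOC545679 (0.96), which were themselves saturated on 17 to 35 arrays. Those most like the third Fabp4 probe were Atp5j (r = 0.89), a subunit of the mitochondrial ATP synthase, then LOC631229 (0.86), Gm5256 (0.86), Gm8722 (0.86) and LOC545845 (0.85). The likeness is a description over arrays that also share brightness and date of scanning.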

How the data were processed

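RNA of 39 samples was hybridised to 1-colour Agilent arrays, 1 per diet and time label. The deposited scanner files hold spot intensity from Agilent Feature Extraction 9.1 (version per the submitters' processing notes), and gProcessedSignal is already background corrected by the authors' scanner software. A deposited table of the series holds 39 columns of the authors' log2 values relative to the LFC array of the same time (at Day 14, to the HFC array). Those comparisons were not used, and only its gene symbols, descriptions and probe sequences were read.

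Intensities were put on the log2 scale, each array's 75th percentile was subtracted, outlier-flagged spots and control spots were dropped, saturated spots were kept, and spots of a probe were averaged. Each gene was read from its brightest probe. Probes well above background on at least 6 arrays (34043 of 40628) were fitted with limma 3.58.1 in R 4.3.3, with diet and time label as terms over all 39 arrays. The slope over log2 days used the 21 LFC and HFC arrays, and the slope over dose rank 24 arrays. Calls needed a Benjamini-Hochberg adjusted p under 0.05 over all probes. Permutation tests and correlations used Python 3.11.15 and numpy 2.4.6. The tests were checked on simulated data. The number of arrays limits the precision.

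The time label served as the pairing of diets, as the labels give it. Residuals of the HFC and LFC arrays with the same label correlated at -0.537 to 0.808, over 0.1 for 5 of 10 labels. The alternatives were quantile normalization, normexp background correction (offset 50), other filters, flagged spots kept, the mean of a gene's probes, slide or scan date as a random block, array weights, arrays or time labels left out, and the methods' t-test. The alternatives on saturation (the Fabp4 probe saturated on the fewest arrays, arrays with over 100 saturated spots left out, and these together with arrays of over 10% flagged spots) were chosen after seeing the data, as were the counts of time labels and the correlations that leave out saturated spots. The genes named were the 10 genes, the markers, the other lipid genes with the 2 smallest p per comparison, and the 5 genes most like Fabp4 and Fabp5. Npr1, Scarb1 and Cav1 were also named over time, after their values were seen. The 10 genes and all lists were chosen with earlier results of these data known. Promoters came from RefSeq (GRCm38.p6).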

Additional observations from a re-analysis of the deposited data

Results flagged for a closer look

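Dixon's test was run within the diets on 44 sets, of which chance gives about 1 in 20. The HFC sets, of 11 arrays each, were not tested, so no HFC value could appear here. In the tested sets, 9 values lay far from the other arrays of their diet. The HF20 Week 15 array, with 71.4% of spots flagged, held 5 of them, all low. They were Pnpla2 at 0.76 (nearest other array 4.81), Mgll at 1.38 (5.22), Cidec at 1.11 (5.20), Cd36 at 0.83 (3.59) and Dgat2 at 0.53 (4.69).

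The HF5 Week 12 array, with 18.63% of spots flagged, held Fabp5 at -3.05 (nearest -0.82) and Cd36 at 0.78 (nearest 4.18). The HF75 Week 15 array, titled BA and with 595 saturated spots, held Lipe at 2.95 (nearest 0.48) and Dgat1 at 3.05 (nearest 0.36), both high. The cause was not tested for any of these values.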

How the results depend on the processing

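None of the 10 genes passed the threshold in any of the 146 settings, and the smallest adjusted p of any gene was 0.136. With no replicate block (time label, the pairing, left out of the fit) 0 genes passed, and 0 with the scan date as a random block (all 6 comparisons), with the slide as a random block (the 4 diet comparisons) and with the methods' t-test (HFC against LFC). The time-label pairing mattered for 1 sign, Cd36 for HFC against LFC, at -0.03 without it, and also -0.03 with the scan date block and with the methods' t-test. Over all probes, HFC against LFC had 0 calls and 3 with quantile normalization, 2 among probes well above background on all arrays, 2 without BA or BAT arrays, 11 with array weights, 7 without arrays of over 100 saturated spots, and 15 also without arrays of over 10% flagged spots. Leaving out 1 time label gave up to 1. The slope over time had 5 with quantile normalization, 35 among probes well above background on all arrays, and up to 1 without a label. The slope over dose rank had up to 7 without a label. HF5 and HF75 had 1 and 4 without BA or BAT arrays, and HF20 had 1 without arrays of over 100 saturated spots.

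The signs turned as follows for HFC against LFC. Without BA or BAT arrays Lipe was 0.06, Pnpla2 0.59, Lpl 0.46, Cidec 0.38 and Dgat1 0.22. With quantile normalization Pnpla2 was 0.12, Lpl 0.08 and Fabp4 0.06, and with normexp Pnpla2 was 0.05 and Lpl 0.08. Without arrays of over 10% flagged spots Pnpla2 was 0.24 and Lpl 0.08. Without arrays of over 100 saturated spots Pnpla2 was 0.14 and Fabp4 0.23, and without both kinds Pnpla2 was 0.15, Lpl 0.02 and Fabp4 0.25. The third Fabp4 probe gave 0.09. Leaving out 1 time label gave Pnpla2 -0.20 to 0.27 (above 0 without Day 6, Week 12 or Week 18), Lpl -0.30 to 0.21 (without Day 6, Week 12, Week 15 or Week 18), Fabp4 -0.61 to 0.24 (without Week 9), Dgat1 -0.71 to 0.02 (without Week 18) and Cd36 -0.19 to 0.20.

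Against HFC, Lipe under HF5 was -0.06 without BA or BAT arrays, and Dgat2 under HF5 was -0.05 with normexp. Lpl under HF20 was 0.29 with array weights and 0.22 without saturated or flagged arrays. Fabp4 under HF75 was -0.93 without saturated arrays and -0.54 without both kinds, and its slope over dose rank was -0.31, -0.18 and, by the third probe, -0.02. The slope of Dgat1 over time was -0.04 without saturated arrays and -0.04 without both kinds. Fabp4 minus Fabp5 turned to -0.12 for HFC against LFC without flagged arrays (-0.17 to 0.55 without 1 label, below 0 without Week 12 or Week 18), to -0.09 under HF5 with normexp, to -0.20 under HF20 by the third probe and to -0.23 under HF75 without saturated arrays. Of the 20 relations to marker means 11 passed over all arrays, 4 of them of Lipe and Dgat1, whose arrays form clusters, and 1 of the saturated Fabp4 probe. The number was 6 without BA or BAT arrays and 4 without saturated or flagged arrays. The cause of these changes was not tested.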
